A study of Mus musculus with 6 samples.

Results

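Inflammatory chemokines and cytokines were followed through RNA-seq of mouse female germline stem cells (FGSCs) with and without knockdown of CTCF. The 10 genes were chosen by name, with no measured value in the rule: the CC chemokines Ccl2, Ccl3, Ccl4, Ccl5 and Ccl9, the CXC chemokines Cxcl2 and Cxcl10, and the cytokines Il6, Il1b and Tnf. They were 10 of the 24728 genes with an expression value. The control group and the shCTCF group had 3 samples each. Cells of both groups were FGSCs of strain C57BL/6 at more than 20 passages, grown with LIF, EGF, bFGF and GDNF on inactivated STO cells, a mouse fibroblast line used as a feeder layer. Per the study's methods, FGSCs came from neonatal ovaries of Ddx4-Cre; mT/mG mice, in which Cre is driven by the germ cell gene Ddx4 and turns on a fluorescent reporter. The shCTCF group carried a lentiviral short hairpin RNA (shRNA) against Ctcf and was selected with puromycin, and the sources used here do not describe what the control group received. Nothing in the labels says whether replicates were separate cultures, so p-values measure only the spread between these samples.

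Chemokines are small secreted proteins that attract leukocytes through G protein-coupled receptors, and CC and CXC name the spacing of their first cysteines. Interleukin-6, interleukin-1 beta and tumour necrosis factor are the classical cytokines of acute inflammation, made mainly by macrophages, mast cells and other innate immune cells and also by fibroblasts. Genes of this kind are induced by NF-kB, AP-1 and interferon-activated factors at their promoters, and many of their mRNAs are short-lived because AU-rich elements in the 3′ untranslated region (3′ UTR) recruit decay proteins. CTCF binds DNA and, with cohesin, holds the ends of chromatin loops.

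The promoters of 4 of these genes are shown because they differ in the motifs of these factors. Each has 250 bases before and 50 after the annotated start, from RefSeq on GRCm38.p6, in the direction of transcription, and capitals mark matches to a searched motif. The first is Ccl9, at chr11:83578587-83578886 on the minus strand. Cxcl10 is at chr5:92348840-92349139 on the minus strand, Il6 at chr5:30012864-30013163 on the plus strand, and Ccl3 at chr11:83649329-83649628 on the minus strand.
Ccl9: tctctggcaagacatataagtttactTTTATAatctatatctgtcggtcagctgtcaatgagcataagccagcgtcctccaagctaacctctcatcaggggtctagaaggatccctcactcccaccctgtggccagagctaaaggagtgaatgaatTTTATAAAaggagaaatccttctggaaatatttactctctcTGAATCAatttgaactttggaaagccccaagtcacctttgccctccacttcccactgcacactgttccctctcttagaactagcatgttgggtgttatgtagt
Cxcl10: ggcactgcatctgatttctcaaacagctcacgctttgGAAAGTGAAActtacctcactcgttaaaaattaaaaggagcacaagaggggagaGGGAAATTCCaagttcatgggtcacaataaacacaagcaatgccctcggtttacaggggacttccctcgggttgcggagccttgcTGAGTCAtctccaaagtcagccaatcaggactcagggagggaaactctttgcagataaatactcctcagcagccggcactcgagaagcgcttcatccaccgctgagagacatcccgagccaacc
Il6: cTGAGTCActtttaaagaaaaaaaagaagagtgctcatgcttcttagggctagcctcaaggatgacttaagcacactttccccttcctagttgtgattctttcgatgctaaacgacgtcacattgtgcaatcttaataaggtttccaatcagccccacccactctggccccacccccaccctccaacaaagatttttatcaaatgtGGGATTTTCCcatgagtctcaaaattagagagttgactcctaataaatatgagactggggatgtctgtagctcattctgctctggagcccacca
Ccl3: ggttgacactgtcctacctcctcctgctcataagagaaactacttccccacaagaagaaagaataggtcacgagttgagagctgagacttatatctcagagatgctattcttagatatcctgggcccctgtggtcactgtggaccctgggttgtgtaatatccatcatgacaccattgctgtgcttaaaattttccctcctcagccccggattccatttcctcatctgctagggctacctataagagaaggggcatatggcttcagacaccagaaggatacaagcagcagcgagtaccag

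The motifs, searched on both strands, were kB (GGGA, any 2 bases, then TTCC), the interferon-stimulated response element or ISRE (GAAA, any 2 bases, then GAAA), AP-1 (TGANTCA, where N is any base), the TATA box (TATAAA) and a CTCF core (CCA, any 2 bases, AG, any 2 bases, then GGC). A kB match was in the windows of Cxcl10, Il6 and Cxcl2, at 159, 44 and 97 bases before the start, and in 1.47% of the 32851 promoters of the table. In Cxcl2 it was matched on both strands at overlapping positions. Cxcl10 was the only gene of the 7 with an ISRE match, at 213 bases before the start (3.44% of all promoters), and it also held an AP-1 match at 74 bases. AP-1 matches were also in Ccl9, at 53 bases, and in Il6, at 249 bases, compared with 7.81% of all promoters. TATA box matches lay at 92, 94 and 224 bases before the start of Ccl9, the first 2 of which overlap on opposite strands, at 31 in Il1b and at 29 in Tnf (13.6% of all promoters). None of the 7 windows held a CTCF core match (2.43% of all promoters), and Ccl3 held no match to any of the 5 motifs. The table had no entry for Ccl2, Ccl4 and Ccl5.

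Total counts lay between 1686052 (control replicate 2) and 7044272 fragments. Between replicates of 1 group the chi-square of the counts per degree of freedom was 2.07 to 8.17, above counting noise, and between samples of different groups it was 93.0 to 213. Ctcf was at 58.2, 56.1 and 53.5 FPKM (fragments per kilobase of transcript, scaled to the number of mapped fragments) in the controls and at 0.740, 0.550 and 0.629 in the shCTCF samples, so the labels held for the targeted gene on FPKM. The count table gave 0 for it in all 6 samples. Genes were called changed at an adjusted p under 0.05 (Benjamini-Hochberg), with limma on log2(FPKM + 1) for genes of at least 1 FPKM on average, and with edgeR on counts. The log2(FPKM + 1) scale understates the change of low genes. The transcriptome moved broadly: limma called 73.0% of 9974 genes, 28.8% higher and 44.2% lower in shCTCF, and edgeR called 69.1% of 7339 genes, 34.8% higher and 34.3% lower. Over all genes tested, the median log2 fold change was -0.17 on FPKM and -0.02 on counts.

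Markers of cell types were read beside the labels because the 10 genes are typical of immune cells. Of 9 germ cell markers, Dppa3, Gfra1, Nanos3 and Sycp3 were at 0 FPKM in all samples, and Ddx4 and Pou5f1 were at 0 in the controls and at most 0.182 in shCTCF. These 6 genes had at most 5 fragments in a sample in the count table (Sycp3). The germ cell sum of 0.0694 to 1.27 FPKM in the controls and 11.3 to 12.2 in shCTCF was mostly Ifitm3. The defining germ cell markers were therefore absent or near 0 in this RNA-seq of cells labelled FGSC. The paper, in contrast, reports Oct4 (Pou5f1), Mvh (Ddx4), Stella (Dppa3) and Gfra1 by RT-PCR in its long-term cultured FGSCs. Its panel also held Dazl and Fragilis (Ifitm3), and Ifitm3 was here at a mean of 0.737 FPKM in the controls and 10.8 in shCTCF. The paper also reports MVH protein in these cells by immunofluorescence. The 12 mast cell markers summed to 1349 to 1398 FPKM in the controls and 1518 to 1584 in shCTCF, led by Kit, Gata2 and Cpa3, with Fcer1a and Mrgprb2 at 0. Within this list Cpa3 fell from 281 to 88.0 FPKM in the mean, while Hdc rose with a log2 fold change of 4.07. The 8 pan-leukocyte markers, among them Ptprc (CD45), all had FPKM values and summed to 768 to 810 and 1175 to 1220 FPKM, and Coro1a among them went from 244 to 113 FPKM (called lower by limma, not called by edgeR). The 14 macrophage markers, led by Cd68 and Adgre1, summed to 103 to 113 and 204 to 239 FPKM, with C1qa, C1qb and Cybb at 0. The 14 fibroblast markers summed to 12.4 to 13.1 and 23.6 to 24.7 FPKM, with Col3a1, Lum and Loxl1 at 0, and limma called 3 of its 6 tested genes higher and 3 lower. Of these, 2 passed the filter only through shCTCF and 2 only through the controls, and of the other 2, 1 was higher and 1 lower. Col6a1 alone went from 0.144 to 15.3 FPKM, more than the rise of the sum, while Pdgfrb fell from 6.09 to 2.16 FPKM and Dcn was at 2.59 to 2.79 FPKM in the controls and at 0 in shCTCF. The 9 lymphocyte markers stayed at or under 1.96 FPKM in sum (Cd3g and Ms4a1 at 0), and the 7 granulosa and ovary markers summed to 0.0558 to 0.434 FPKM in the controls and 2.14 to 3.33 in shCTCF (Foxl2, Fshr and Inha at 0). The latter rise was mostly Wt1, at 0 FPKM in the controls and 2.15 in shCTCF (limma adjusted p = 4.18e-05). Wt1 was the only gene of its list that limma tested, and it passed the filter through shCTCF, so it had to differ once tested. The germ cell, mast cell, pan-leukocyte, macrophage, fibroblast and granulosa sums were each higher in every shCTCF sample than in every control. Most of the 10 genes went in the same direction on FPKM, although members of 3 of these lists fell. The part of these lists in the results was not tested. In bulk samples, a change in the number of cells of a type and a change in RNA per cell cannot be told apart.

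On FPKM, most of the 10 genes were higher after CTCF knockdown, and the CC chemokines of a chromosome 11 cluster rose most. On counts, Il6 went the other way, but from only 58 of its 1141 exon bases and under the edgeR filter. Cxcl2 showed no detectable difference on counts. Ccl9 rose from 0.728 to 28.1 FPKM in the mean, Ccl3 from 0.619 to 9.95 and Ccl5 from 2.32 to 8.83, and Cxcl10 and Tnf rose by smaller amounts. The groups were apart for 8 of the 10 genes, compared with 59.5% of the 15375 genes with FPKM above 0 in any sample. Of the 10 genes, 7 had all shCTCF values above all control values (27.8% of those 15375 genes), 1 had them below (31.7%), and Il1b and Tnf overlapped. Limma called 5 genes higher (28.8% of genes tested), called none lower, did not call Il6, and did not test 4 that were under the filter. In the count table, edgeR called 5 of the 10 higher (34.8% of genes tested) and 5 were under its filter. With no filter, limma called 6 higher (23.7% of 15375 genes) and Ccl2 lower (28.8%), and edgeR called 5 higher (21.9% of 14374 genes) and Il6 lower (18.4%). Ccl9 and Ccl3 were under 1 FPKM in the controls and passed the FPKM filter through the shCTCF group, as Ccl3 and Ccl4 did on counts, so these had to differ once tested.

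**Figure D1:**
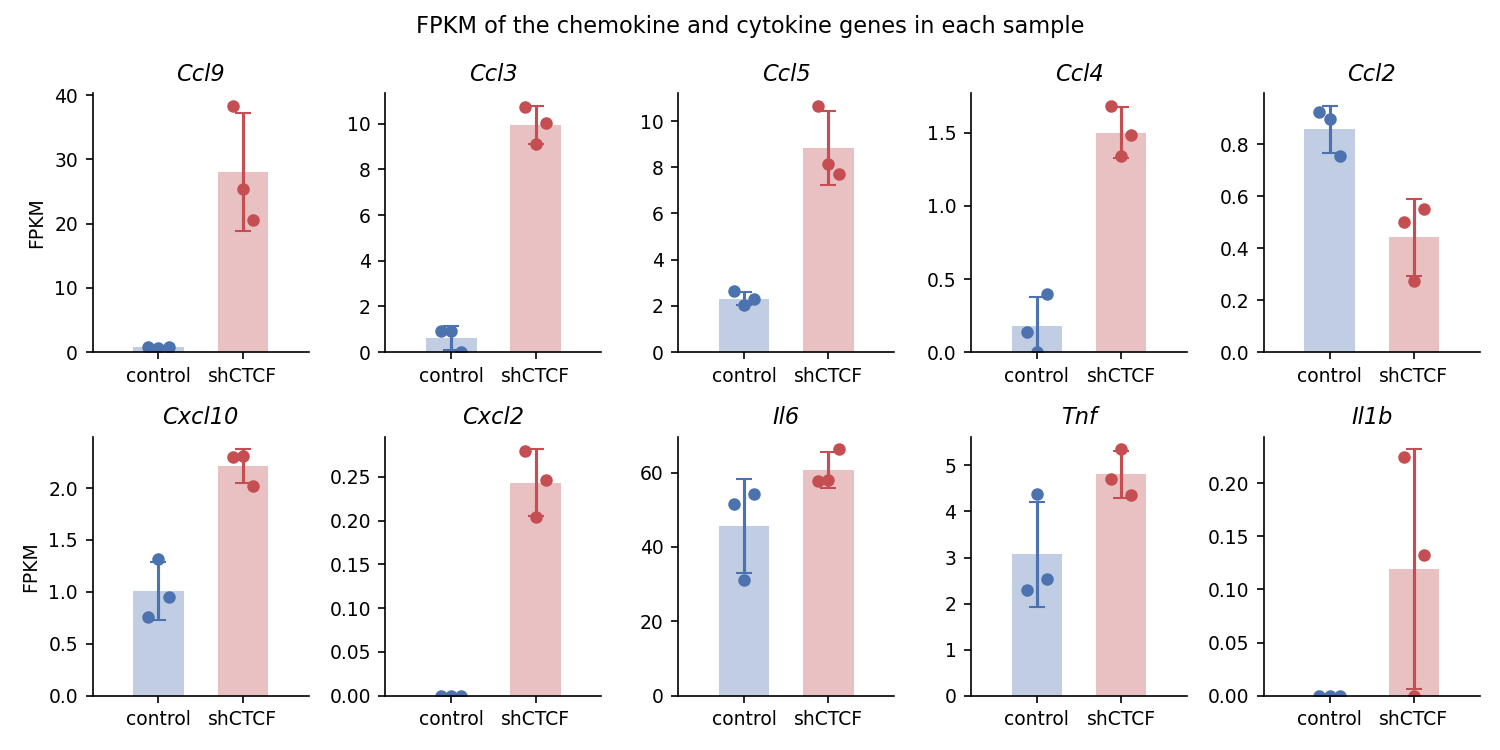
FPKM of each of the 10 genes, with a panel and a linear scale from 0 for each gene; points are the 3 samples of a group, bars the mean and error bars the SD. The groups are apart for every gene except Il1b and Tnf, and Ccl2 is the gene with the shCTCF samples below the controls.

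Ccl9, also called MIP-1 gamma, is a ligand of CCR1 made by myeloid cells and osteoclasts, on mm9 chromosome 11 from 83386419 to 83392138 (minus strand). Its level was 0.803, 0.600 and 0.780 FPKM in control replicates 1, 2 and 3 and 38.3, 25.4 and 20.6 FPKM in shCTCF replicates 1, 2 and 3. The lowest shCTCF sample was far above the highest control. The mean rose from 0.728 ± 0.111 to 28.1 ± 9.20 FPKM (SD, n = 3), or 38.6-fold, with a log2 fold change of 4.03 (SE 0.21, limma adjusted p = 1.57e-06), which placed it at rank 72 of the 9974 genes. The counts behind this were the deepest of the 10 genes, with 26, 7 and 28 fragments in the controls and 1228, 732 and 758 in shCTCF. The ratio of pooled shares of the counts was 37.9 (95% interval 29.4 to 49.7, counting error only), and the log2 fold change on counts was 5.42 (SE 0.29, edgeR adjusted p = 8.43e-09).

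Ccl3, or MIP-1 alpha, attracts monocytes and other cells through receptors that include CCR1, and lies on chromosome 11 from 83461345 to 83462880 (minus strand). It was at 0.941, 0.914 and 0 FPKM in the controls and at 10.7, 9.10 and 10.0 FPKM in shCTCF. The shCTCF samples lay close together, while the controls rested on 8, 2 and 1 fragments compared with 89, 68 and 103. The mean rose from 0.619 ± 0.536 to 9.95 ± 0.827 FPKM (SD, n = 3). The log2 fold change was 2.82 on FPKM (SE 0.25, limma adjusted p = 2.8e-05) and 4.44 on counts (SE 0.38, edgeR adjusted p = 6.9e-07), with a pooled ratio of 20.1 (95% interval 11.04 to 40.75).

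Ccl4, or MIP-1 beta, attracts macrophages and natural killer cells and lies 13.2 kb from Ccl3, at 83476086 to 83478185 on the plus strand. Its level was 0.141, 0 and 0.395 FPKM in the controls and 1.68, 1.34 and 1.48 FPKM in shCTCF. These are low levels from 1, 0 and 4 fragments compared with 14, 10 and 14, and the groups did not overlap on either scale. Its mean was under the FPKM filter. On counts the log2 fold change was 2.78 (SE 0.57, edgeR adjusted p = 0.000877), and the pooled ratio of 6.46 had a wide interval, from 2.54 to 21.0.

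Ccl5, or RANTES, attracts T cells, eosinophils and monocytes through receptors that include CCR1 and CCR3, and lies at 83339281 to 83344020 on the minus strand. It was already measured in the controls, at 2.63, 2.04 and 2.29 FPKM, and was at 10.7, 8.12 and 7.71 FPKM in shCTCF. Every shCTCF sample was above every control. The mean rose 3.81-fold, from 2.32 ± 0.293 to 8.828 ± 1.598 FPKM (SD, n = 3), with a log2 fold change of 1.56 on FPKM (SE 0.14, limma adjusted p = 2.7e-05) and 2.08 on counts (SE 0.27, edgeR adjusted p = 2.32e-05).

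Ccl2, or MCP-1, the main monocyte attractant through CCR2, went the other way. It lies apart from the other CC chemokines, on chromosome 11 from 81849079 to 81850954 (plus strand). Its level was 0.922, 0.896 and 0.755 FPKM in the controls and 0.502, 0.274 and 0.552 FPKM in shCTCF, so the shCTCF samples were all below the controls. The gene was under both filters. With no filter the log2 fold change was -0.37 on FPKM (limma adjusted p = 0.0152) and -1.08 on counts (edgeR adjusted p = 0.188). It rested on 14, 2 and 9 fragments in the controls and 5, 2 and 5 in shCTCF, and the pooled ratio was 0.408 (95% interval 0.187 to 0.843).

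Cxcl10, or IP-10, is an interferon-induced ligand of CXCR3, on chromosome 5 from 92775665 to 92777915 (minus strand), within the span of Art3 on the other strand. It was at 0.760, 1.31 and 0.948 FPKM in the controls and at 2.30, 2.31 and 2.02 FPKM in shCTCF. The groups were apart, by less than for the CC chemokines that rose. The mean rose 2.19-fold, from 1.01 ± 0.281 to 2.21 ± 0.163 FPKM (SD, n = 3), with a log2 fold change of 0.69 on FPKM (SE 0.14, limma adjusted p = 0.00277) and 1.54 on counts (SE 0.29, edgeR adjusted p = 0.00048). Art3 was at 0 FPKM in the controls and at most 0.0836 in shCTCF.

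Cxcl2, or MIP-2, attracts neutrophils through CXCR2, and lies on chromosome 5 from 91332925 to 91334964 (plus strand). It was listed at 0 FPKM in every control and at 0.280, 0.204 and 0.246 FPKM in shCTCF. The FPKM groups were apart, but the counts were 1, 0 and 4 fragments in the controls and 4, 3 and 3 in shCTCF, so the 0 of the FPKM table did not mean that no fragment was counted. The pooled ratio was 1.70 (95% interval 0.529 to 6.34), and with no filter limma gave an adjusted p of 0.000347 and edgeR one of 0.491. No difference was detectable on counts at this depth.

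Il6 encodes interleukin-6, which signals through the IL-6 receptor and gp130, and lies on chromosome 5 from 30339654 to 30346515 (plus strand). It was the most highly expressed of the 10 genes in every sample, at 51.5, 31.0 and 54.3 FPKM in the controls and 57.8, 58.1 and 66.3 FPKM in shCTCF. All shCTCF values were above the controls, but control replicate 2 was well below the other controls. The mean was 45.6 ± 12.7 in the controls and 60.8 ± 4.79 FPKM in shCTCF (SD, n = 3), with a log2 fold change of 0.44 (95% interval -0.01 to 0.90) that did not pass the test (limma adjusted p = 0.0733). The call depended on the setting. Without control replicate 2 the log2 fold change was 0.19 with an adjusted p of 0.0365 (limma), and with each sample scaled to the same median it was 0.62 with an adjusted p of 0.0186. The counts ran in the opposite direction, with 16, 1 and 8 fragments in the controls and 3, 0 and 4 in shCTCF, a pooled ratio of 0.238 (95% interval 0.0869 to 0.566) and, with no filter, a log2 fold change of -1.80 (edgeR adjusted p = 0.0355). They came from only 58 exon bases, 5.08% of the 1141 exon bases of the transcript NM_031168, because the authors' counting dropped fragments shared by exons of several accessions. The FPKM values used the whole transcript, and a difference between its ends was not tested.

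Tnf encodes tumour necrosis factor, an activator of NF-kB signalling, and lies on chromosome 17 from 35336312 to 35338952 (minus strand). It was at 2.31, 4.37 and 2.52 FPKM in the controls and at 4.71, 5.35 and 4.36 FPKM in shCTCF. Control replicate 2, the smallest library, reached the level of the lowest shCTCF sample. The mean rose from 3.07 ± 1.13 to 4.81 ± 0.502 FPKM (SD, n = 3), with a log2 fold change of 0.55 (SE 0.19, limma adjusted p = 0.032). This call was lost with no filter, at an adjusted p of 0.0647, and when any sample other than control replicate 2 was left out, at adjusted p-values (limma) between 0.0565 and 0.105. Without control replicate 2 it held, with a log2 fold change of 0.76. No fragment was counted for Tnf in any sample, since its 2 accessions leave 48 exon bases (2.90%) that no other accession shares, so that counts gave no second measurement.

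Il1b, which encodes interleukin-1 beta, a cytokine released after cleavage by caspase-1, was near the limit of detection. It lies on chromosome 2 from 129190314 to 129196875 (minus strand) and was at 0 FPKM in every control and at 0.225, 0 and 0.132 FPKM in shCTCF, from 3, 0 and 2 fragments. The groups overlapped, and without a filter the limma adjusted p was 0.116. The strand was not used in counting, and the antisense gene Il1bos overlaps the span of Il1b. None of the 1348 exon bases of Il1b was shared with another accession, however, and Il1bos was at 0 FPKM and 0 fragments in every sample. For each gene the 3 control and 3 shCTCF values of FPKM were also compared by exact permutation (two-sided), which gave p = 0.1 for the 8 genes whose groups were apart, the smallest p this design allows, 0.2 for Tnf and 0.4 for Il1b.

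**Figure D2:**
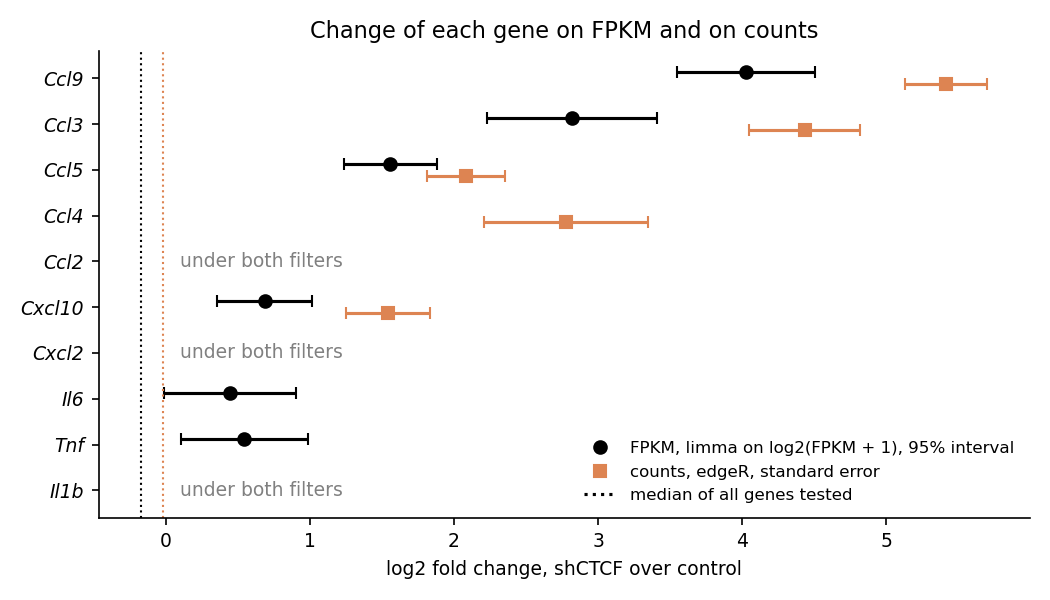
Log2 fold change of shCTCF over control for each gene, from limma on log2(FPKM + 1) with 95% intervals (black circles) and from edgeR on counts with standard errors (orange squares); dotted lines are the medians of all genes tested, -0.17 and -0.02. Ccl9 (4.03 and 5.42) and Ccl3 (2.82 and 4.44) lie farthest to the right, and the interval of Il6 reaches -0.01.

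The order of the levels changed with the knockdown. In the controls Il6 was far above the rest, Tnf and Ccl5 followed with overlapping ranges, and Cxcl10, Ccl2, Ccl9, Ccl3 and Ccl4 each overlapped the next gene in the order. In shCTCF, Il6 was followed by Ccl9, then by Ccl3 and Ccl5, whose ranges overlapped, and then by Tnf, Cxcl10 and Ccl4, each apart from its neighbours. Ccl2, Cxcl2 and Il1b came last and overlapped in neighbouring pairs. The summed level of the 10 genes was 60.0, 41.2 and 62.0 FPKM in the controls and 127, 110 and 113 FPKM in shCTCF. Il6 made up 75.4% to 87.6% of this sum in the controls and 45.4% to 58.5% in shCTCF, and without Il6 the sum was 7.69 to 10.1 FPKM in the controls and 47.1 to 69.4 in shCTCF. Most of that difference was Ccl9, Ccl3 and Ccl5.

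**Figure D3:**
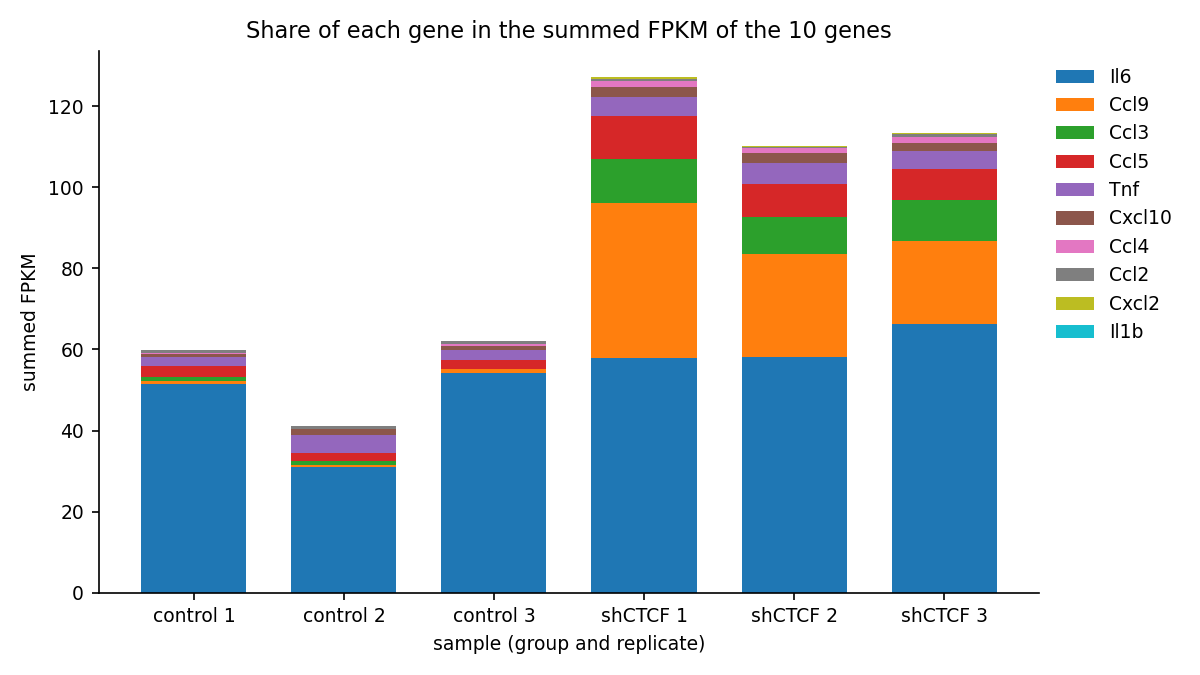
Summed FPKM of the 10 genes in each sample, with the level of each gene stacked from Il6 at the bottom. Il6 fills most of the control bars (75.4% to 87.6%), and in the shCTCF bars Ccl9, Ccl3 and Ccl5 add a large part above it.

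Ccl5, Ccl9, Ccl3 and Ccl4 lie in 1 chemokine cluster, and the genes around them were read to see whether the change was shared. Within 100 kb of these 4 genes there were 15 genes over 324 kb, counting the 4. Ccl6, a CC chemokine whose start is 14.5 kb from that of Ccl9, was at 0 FPKM in every control and at 0.985, 0.693 and 0.991 FPKM in shCTCF. EdgeR called Ccl6 higher (adjusted p = 3.88e-05), but with 0 fragments in every control it passed the count filter through shCTCF and had to differ once tested. Taf15, an RNA-binding protein gene, and Heatr6 flank the chemokines and went down, from 80.5 to 49.2 and from 7.70 to 4.95 FPKM in the mean. Their log2 fold changes were -0.69 (limma adjusted p = 0.000973) and -0.55 (adjusted p = 0.00202). On the Taf15 side 1700020L24Rik, which is no chemokine gene, was at 0, 0 and 0.0933 FPKM in the controls and at 0.543, 0.356 and 0.758 in shCTCF, under both filters (no-filter adjusted p of 0.00262 by limma and 0.0435 by edgeR). It is named after its values were seen. Of the other genes, 5 were at 0 FPKM in all samples.

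**Figure D4:**
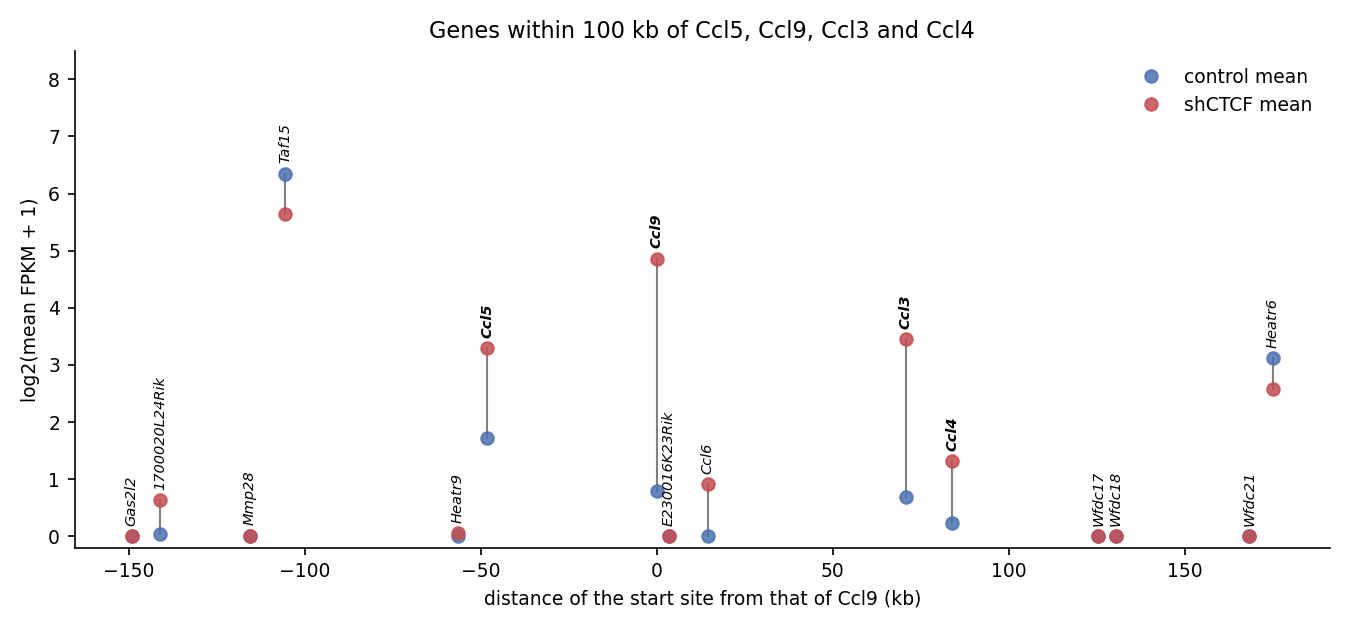
Mean level of the genes within 100 kb of Ccl5, Ccl9, Ccl3 and Ccl4 as log2(mean FPKM + 1), against the distance of each start site from that of Ccl9 in kb (mm9); blue points are the control means, red points the shCTCF means, and names in bold are among the 10 genes. The 4 bold genes, Ccl6 and 1700020L24Rik are higher in shCTCF, while Taf15 and Heatr6 at the sides are lower.

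Around all 10 genes, 58 other genes lay within 100 kb, of which limma tested 24 and called 5 higher and 13 lower, with a median log2 fold change of -0.55, compared with 28.8% higher and 44.2% lower among all genes. On counts edgeR tested 17 and called 6 higher and 6 lower, compared with 34.8% higher and 34.3% lower among all genes. The genes tested differed, so these tallies cannot be compared directly. Ddx39b, Nfkbil1, Nup54, Prrc2a and Tyms were lower on FPKM but not tested on counts. Ccl6, Ccl12 and Lta passed the count filter only through shCTCF and Ltb only through the controls. Close to Ccl2, Ccl12, also a CCR2 ligand, rose from 0.520, 0 and 0 FPKM to 2.45, 2.48 and 2.82 FPKM (log2 fold change 1.64, limma adjusted p = 0.00012), the opposite direction to Ccl2. Next to Tnf in the major histocompatibility region, the other genes of its own family differed from each other. Lta (lymphotoxin alpha), 1.16 kb away, rose from 0.134, 0 and 0.188 FPKM to 2.34, 1.84 and 2.32 (log2 fold change 1.51, limma adjusted p = 3.72e-05). Ltb (lymphotoxin beta), 3.06 kb away, fell from 2.80, 3.63 and 3.17 FPKM to 0.369, 0.909 and 0.731 (log2 fold change -1.34, limma adjusted p = 0.000142). Ccl12 and Lta passed the FPKM filter only through shCTCF and Ltb only through the controls, so these 3 had to differ once tested. The class I gene H2-D1 rose from 185 to 991 FPKM in the mean (log2 fold change 2.42, limma adjusted p = 2.77e-07), a value that may share fragments with near-identical class I genes. Abhd16a, Bag6, Ddx39b, Nfkbil1 and Prrc2a of the same region were lower on FPKM, with log2 fold changes from -1.82 (Ddx39b) to -0.55 (Prrc2a), while Bag6 was not called on counts (-0.10, edgeR adjusted p = 0.855), and D17H6S53E was higher (0.79). Gpank1 was called lower on FPKM but was listed at 0 in control replicate 3 and had a count log2 fold change of -0.26 (edgeR adjusted p = 0.606). Near Cxcl10, the genes Sdad1 and Nup54 fell, with log2 fold changes of -1.42 and -0.77, and Scarb2 rose, with 0.47. Tyms near Il6 (-0.94) and Ckap2l near Il1b (-1.33), genes of proliferating cells, also fell. Csnk2b, Garem2, Hadha, Lst1, Mthfd2l and Naaa did not pass the test.

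Some receptors of these chemokines were at or near 0. Ccr2 and Ccr3 were at 0 FPKM in all samples, Ccr1 was at most 0.0307 FPKM and Cxcr3 at most 0.0687 FPKM, and none of these 4 had more than 1 fragment in a sample. These were picked after their values were seen because they bind ligands among the 10 genes. Of 23 chemokine receptor genes limma tested 6 and called 4 higher and 1 lower, with a median log2 fold change of 2.01. Ccr4 and Ccr7 were under 1 FPKM in the controls and passed the filter through shCTCF, and among the other 4 there were 2 higher and 1 lower (median 0.80). Cxcr2, the receptor of Cxcl2, rose from 13.2, 10.3 and 13.9 FPKM to 70.9, 71.1 and 78.2 FPKM (log2 fold change 2.47, limma adjusted p = 9.29e-07). Ccr7 and Ccr4, which guide dendritic cells and T cells to lymphoid tissue and skin, rose by 3.82 and 2.99 on the log2 scale, and the atypical receptor Ccrl2 by 1.56. Cxcr4, the receptor of CXCL12, fell by 1.05. In the count table Ccr7 had at most 1 fragment in a sample and Cxcr4 had 0, so counts gave no second measurement of them.

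Receptors of the 3 cytokines were expressed, and limma called 7 of 9 tested genes of that list of 11 higher and 1 lower (median 1.94). Il1r2 and Il6ra passed the filter only through shCTCF, and among the other 7 there were 5 higher and 1 lower (median 0.45). Il1r1, which transmits the IL-1 signal, rose from 4.79, 4.73 and 5.70 FPKM to 63.7, 59.7 and 55.1 FPKM, a log2 fold change of 3.32 (limma adjusted p = 1.06e-07). The decoy receptor Il1r2 also rose, by 1.94, while Sigirr, an inhibitory member of the family, fell by 1.42. Il6ra and Il6st, both chains of the IL-6 receptor, rose by 3.07 and 2.50, and Il18r1 by 3.22.

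Other ligands changed in both directions. Of 28 other chemokines limma tested 2, Ccl12 and Ccl25 (log2 fold change 1.26), and called both higher, Ccl12 after passing the filter through shCTCF. The platelet chemokines Ppbp and Pf4, named after their values were seen, went down. On counts edgeR called Ppbp lower (log2 fold change -1.44, adjusted p = 0.0203). Pf4 was under both filters, with means of 1.18 and 0.0504 FPKM (no-filter adjusted p of 7.24e-05 by limma and 0.00114 by edgeR). Of 40 other cytokines limma tested 14, of which 10 were higher and 4 lower (median 1.70). Of these, 5 passed the filter only through shCTCF and Ltb only through the controls, and among the other 8 there were 5 higher and 3 lower (median 0.50). Il13, a type 2 cytokine, rose from 3.93, 4.19 and 4.11 FPKM to 87.1, 60.5 and 58.9 FPKM (log2 fold change 3.76, limma adjusted p = 4.4e-07). Csf1, the macrophage growth factor, Tnfsf10 (TRAIL), Il18, Tnfsf14 (LIGHT) and Osm (oncostatin M) rose with log2 fold changes of 3.57, 3.00, 2.89, 2.64 and 2.00. Mif (macrophage migration inhibitory factor), the most highly expressed gene of the list and named after its values were seen, fell from a mean of 1026 to 320 FPKM (log2 fold change -1.68, limma adjusted p = 1.71e-07), and Il16 fell by 1.55. The summed level of the list fell with Mif, from 1121 to 1179 FPKM in the controls to 771 to 901 in shCTCF.

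Genes that process or transmit these signals were mixed. Of 14 genes for the release of IL-1 and TNF, limma tested 8, with 4 higher and 2 lower (median 0.23, or 0.00 without Casp4, which passed the filter through shCTCF). Casp4 of the noncanonical inflammasome rose from 1.09, 1.00 and 0.903 FPKM to 25.0, 27.0 and 25.9 FPKM (log2 fold change 3.75, limma adjusted p = 4.58e-08), and Nlrp3, the inflammasome sensor, fell by 1.11. Casp8, Rhbdf2 and Gsdmd rose by 1.10, 1.01 and 0.46, and Adam17, the protease that sheds TNF, fell by 0.37. Of 25 receptor adaptors and regulators 24 were tested, with 10 higher and 6 lower (median 0.10). Traf1 passed the filter only through shCTCF, and among the other 23 there were 9 higher and 6 lower (median 0.08). Socs3, a feedback inhibitor of IL-6 type signals, rose from 11.6, 15.0 and 12.2 FPKM to 177, 170 and 170 FPKM (log2 fold change 3.64, limma adjusted p = 7.92e-08). Traf1, Birc3 and Socs1 rose by 2.15, 1.31 and 1.23, and the adaptors Ticam2 and Tab1 fell by 1.82 and 1.58.

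**Figure D5:**
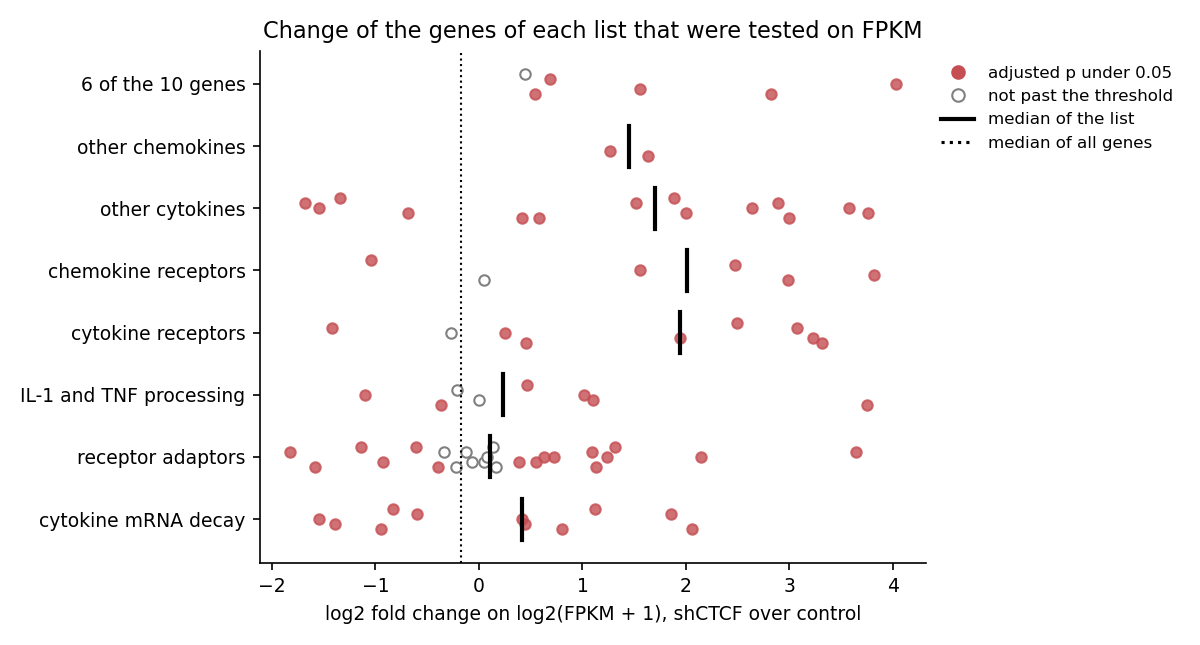
Log2 fold change on log2(FPKM + 1), shCTCF over control, of the tested genes of each list; filled points passed the limma test at an adjusted p under 0.05, open points did not, bars are list medians and the dotted line is the median of all genes (-0.17). Receptor lists have medians of 2.01 and 1.94, and the lists for processing, adaptors and mRNA decay have medians of 0.23, 0.10 and 0.41, with genes that passed the filter through shCTCF alone included.

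AU-rich elements were counted because the mRNAs of such genes are known to be unstable. Counted as ATTTA per kilobase of the longest annotated 3′ UTR (NCBIM37 annotation), Ccl3 held 5 in 409 bases (12.2 per kb), a density reached by 0.7% of the 19294 genes with a 3′ UTR of at least 50 bases, and the median gene had 1.08 per kb. Il6 had 11.9, Tnf 10.5, Il1b 8.72, Cxcl2 7.51 and Ccl4 6.62 per kb, densities reached by at most 3.62% of genes. Ccl2, Cxcl10 and Ccl9 had 3.64, 2.74 and 2.03 per kb, and Ccl5 held none in 199 bases. Among the CC chemokines that rose, the density thus ranged from the highest of the 10 genes (Ccl3) to none (Ccl5). The longer element TTATTTATT was in the 3′ UTR of Tnf (5 matches) and Cxcl2 (4 matches) only, 2 of the 10 genes compared with 6.73% of genes.

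Genes of cytokine mRNA decay changed in both directions, with 6 of 11 genes of the list called higher and 5 lower by limma (median 0.41). Zfp36 (tristetraprolin), which binds AU-rich elements and promotes decay, rose from 11.4, 17.8 and 11.1 FPKM to 54.5, 60.6 and 59.2 FPKM (log2 fold change 2.06, limma adjusted p = 1.55e-05). Zc3h12a (Regnase-1), a nuclease that degrades Il6 mRNA, and Rc3h1 (Roquin-1), both of which act on stem-loops, rose by 1.85 and 1.13. Hnrnpd (AUF1), Khsrp and Tial1, which bind AU-rich sequences, fell by 1.55, 1.39 and 0.94. Over the 7 lists of ligands, receptors, signalling and decay genes, limma tested 74 of 152 genes and called 43 higher and 19 lower. Among all genes limma called 28.8% higher and 44.2% lower. EdgeR called 38 higher and 8 lower of 53 tested, compared with 34.8% higher and 34.3% lower among all genes. The count total includes genes that passed the count filter only through shCTCF, such as Ccl6, Ccl12 and Ccr4, which had to differ once tested. Of the genes of these lists named above, Il6ra, Il1r2, Il18, Traf1, Nlrp3, Hnrnpd, Rhbdf2 and Adam17 had at most 2 fragments in a sample. So did the neighbours Nup54, Prrc2a and Tyms and the markers Adgre1 and Pdgfrb. The markers Kit and Dcn had at most 3. The changes of all these genes on FPKM had no second measurement on counts. Without the 12 genes that passed the FPKM filter only through shCTCF and the 1 only through the controls, limma called 31 higher and 18 lower of 61.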

How the data were processed

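RNA-seq libraries (KAPA Stranded mRNA-Seq) of 3 control and 3 shCTCF samples were used, and the labels gave the groups. Per the submitters' processing notes, the authors aligned reads with HISAT2 (given there as version 4.8.2) to mm9 and computed the deposited FPKM values, already scaled for depth and transcript length, with Cufflinks 2.2.1. The deposited counts are whole fragments per RefSeq accession, made by the authors with featureCounts 1.6.2 per the file headers, without strand and without normalization, and fragments shared by several accessions were dropped. No value column was without a sample (0). Symbols came from a RefSeq gene table, matched for 41181 of 41388 count accessions and 41680 of 41876 FPKM rows. FPKM and counts were summed per symbol. Accessions without a symbol took up to 0.622% of a library's counts.

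FPKM was tested with limma 3.58.1 (log2(FPKM + 1), mean of at least 1 FPKM, eBayes with trend). Counts were tested with edgeR 4.0.16 (quasi-likelihood test, TMM, filterByExpr) in R 4.3.3. Tests were two-sided, with Benjamini-Hochberg adjustment over every gene tested. Both scripts were tested on simulated data. Total counts ranged from 1686052 to 7044272 fragments, so that 3 counts were 0.426 to 1.78 CPM. Intervals of pooled ratios cover counting error only. Replicates shared numbers between groups, but same-numbered samples did not deviate together (r from -0.01 to 0.03), so no block was used. Named genes were the 10 members, Ctcf, up to 6 genes per list with the largest change among those that passed the test with groups apart, up to 4 per marker list with the highest mean, markers at 0, and neighbours within 100 kb that passed a filter. The genes, lists and rules were chosen with earlier results of these data known. Alternatives were other filters, pseudocounts, scalings, DESeq2 1.42.0, the replicate block and the omission of each sample.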

Additional observations from a re-analysis of the deposited data

How the results depend on the processing

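The number of the 10 genes past the threshold was 5 on FPKM (limma) and 5 on counts (edgeR). It was 3 of 4 tested with a filter at a mean of 5 FPKM and 3 of 3 tested with a filter at a mean of 5 CPM, where fewer genes were tested. When each sample was left out in turn it lay between 4 and 6 on FPKM and was 5 each time on counts. The counts over all genes then lay between 6582 and 7883 (FPKM) and between 4601 and 5484 (counts), those over the lists between 62 and 66 and between 42 and 46, those of neighbouring genes between 17 and 18 and between 12 and 13, and the log2 fold change of Ctcf between -5.16 and -5.08. No log2 fold change of the 10 genes or Ctcf that was tested changed sign under an alternative in the same table, while Il6 was higher on FPKM and lower on counts with no filter. Of the values of single genes under the alternatives, 144 stayed on the same side of the threshold, 5 (all of Il6) passed it and 7 (all of Tnf) no longer did; the cause was not tested. With the accession of highest mean in place of the sum, Tnf had a limma adjusted p of 0.0577. Its own values and its log2 fold change of 0.55 were unchanged there, since its other accession was at 0 FPKM in every sample. Only the values of other genes in the fit differed. With quantile normalization Il6 had a limma adjusted p of 0.0313.

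With the replicate number as a block, limma called 6 of the 10 genes, Il6 in addition (adjusted p = 0.0304), and 7136 genes in all, and edgeR called 5 and 4889. It changed no other call of the 10 genes. Scaling to the same median moved the median of all genes on FPKM from -0.17 to -0.01 and the share of calls that were higher from 39.5% to 49.1%, and scaling counts by library size only moved the median from -0.02 to -0.19 and that share from 50.3% to 41.5%. The median on counts, close to 0, was 0.03 with RLE scaling and with DESeq2 and 0.17 with no filter, that on FPKM 0.01 with no filter, and with upper quartile scaling 2520 genes were higher and 2542 lower on counts, compared with 2553 and 2519. Leaving out a sample moved Ccl4 on counts between 2.34 and 4.06 and Ccl3 between 3.74 and 5.45. Depth limits Ccl2, Ccl4, Cxcl2 and Il1b, each with at most 14 fragments in a sample.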
